A study of Mus musculus with 11 samples.

Results

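The antioxidant enzyme genes described here are those for glutathione synthesis and recycling, the glutathione peroxidases, the glutathione S-transferases, the peroxiredoxins, the thioredoxin system, the superoxide dismutases, catalase, Nqo1 and Hmox1. They were taken by symbol alone, from the families Gpx, Gst, Mgst, Prdx, Txn, Txnrd and Sod and the single genes Cat, Nqo1, Gclc, Gclm, Gsr, Gss, Srxn1 and Hmox1. This gave 55 of the 27179 gene identifiers counted. Of these 55 genes, 51 passed the filter on low counts and were tested among 17370 genes, and Gpx5, Gpx6, Gstm3 and Gstt4 did not pass. RNA was sequenced from epithelial cells of the mammary gland of female C57BL/6 mice aged 5 weeks that carried E-cadherin-GFP. Terminal end buds (TEBs), the growing tips of the pubertal ductal tree, and the ducts behind them were micro-dissected. From each, Lin–CD29+CD24+ cells were sorted into a basal population with low E-cadherin-GFP and a luminal population with high E-cadherin-GFP, so the gate itself rests on an epithelial adhesion protein. The 11 libraries were 3 of basal duct, 3 of basal TEB, 2 of luminal duct and 3 of luminal TEB, each a pool of at least 2 mice, and the authors dropped a further luminal duct pool that gave too few cells.

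As background, glutathione is a tripeptide thiol that is made by glutamate-cysteine ligase (Gclc and Gclm) and glutathione synthetase (Gss) and is returned from its oxidized form by glutathione reductase (Gsr) with NADPH. Glutathione peroxidases spend it on hydrogen and lipid peroxides, and glutathione S-transferases spend it on electrophiles. Peroxiredoxins, the thioredoxins and their reductases form a parallel thiol system that also draws on NADPH. Superoxide dismutases and catalase act on superoxide and on hydrogen peroxide without a thiol. In the mammary gland basal cells are contractile myoepithelial cells and their precursors, and luminal cells line the lumen and hold the hormone-sensing and milk-forming lineages.

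The peroxidases fall into a class with selenocysteine and a class with cysteine in the active site, and the coding sequences show which is which. Selenocysteine is read from an in-frame TGA. The stretches below run 5′ to 3′ on the coding strand, each within 1 exon of the GENCODE M21 models on GRCm38 (the same assembly as mm10), with capitals on the codon that aligns with the in-frame TGA of Gpx1. They are given for the 6 tested peroxidases, because these genes parted by cell type in the results that follow.
Gpx1 (chr9:108339433-108339471, plus strand): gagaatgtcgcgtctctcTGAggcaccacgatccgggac
Gpx2 (chr12:76795238-76795276, minus strand): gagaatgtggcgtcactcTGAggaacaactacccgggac
Gpx3 (chr11:54907238-54907276, plus strand): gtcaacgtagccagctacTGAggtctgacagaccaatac
Gpx4 (chr10:80054719-80054757, plus strand): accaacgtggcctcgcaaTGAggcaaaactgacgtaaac
Gpx7 (chr4:108403412-108403450, minus strand): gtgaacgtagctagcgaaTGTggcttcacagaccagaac
Gpx8 (chr13:113045643-113045681, minus strand): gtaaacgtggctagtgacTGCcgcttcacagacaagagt
Gpx1, Gpx2, Gpx3 and Gpx4 carried TGA at this codon, Gpx7 carried TGT and Gpx8 carried TGC. The 3 thioredoxin reductases also carried an in-frame TGA, as their last codon but 1 before the stop, shown here in capitals with the bases before it for the 2 that were higher in basal cells.
Txnrd1 (chr10:82896013-82896042, plus strand): ggagacatcctccagtctggctgcTGAggt
Txnrd3 (chr6:89674765-89674794, plus strand): ctggacattactcagaaaggctgcTGAggc

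Many of these genes are known targets of the transcription factor NRF2, which binds the antioxidant response element. Its core, TGACNNNGC, was searched on both strands from 250 bases before to 50 bases after the starts that RefSeq gives on GRCm38. It was found in 9 of 62 windows of the genes described here (14.5%), against 12.4% of all 32851 windows. Windows were matched for 48 of the 55 genes, and 9 of these 48 (18.8%) held a match, against 14.0% of all 27025 genes. The stricter form TGACTCAGC, which has the length of the core with its free bases fixed, lay in 0.454% of all windows. Among these genes it lay in that of Prdx1, and each copy is also a match to the core. The genes with a match were Gclm, Gsta3, Gstm5, Gstm7, Mgst1, Prdx1, Sod1, Srxn1 and Txnrd1, and they include genes that were higher in basal cells, genes that were higher in luminal cells and genes that passed in neither direction. A match is a description of letters and not of a bound site. The stretches around the match, in capitals, are shown for 1 gene of each kind on the gene's own strand.
Txnrd1 (chr10:82859094-82859142, plus strand): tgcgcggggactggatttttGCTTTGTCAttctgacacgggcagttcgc
Gclm (chr3:122245403-122245451, plus strand): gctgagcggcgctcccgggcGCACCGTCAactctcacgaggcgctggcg
Prdx1 (chr4:116685446-116685494, plus strand): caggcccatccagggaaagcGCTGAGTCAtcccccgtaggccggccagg

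Libraries held between 27989137 and 49221436 counts. Mitochondrial genes took 4.34% to 37.5% of counts, and the shares above 15% were those of basal TEB replicate 1 (37.5%), luminal duct replicate 3 (28.5%) and basal TEB replicate 3 (17.8%). In basal TEB replicate 1, 25.5% of the tested genes were at 0, against 3.48% to 19.2% elsewhere. The 10 markers of basal cells, among them Krt5, Krt14 and Trp63, summed to 18800 to 22660 CPM (counts scaled to library size after TMM normalization) in basal duct, 6728 to 10160 in basal TEB, 110 to 306 in luminal duct and 23.3 to 32.6 in luminal TEB. The 7 markers of mature luminal cells, among them Esr1, Pgr and Prlr, summed to 3866 to 6920 CPM over the luminal libraries and to 38.5 to 97.5 over the basal libraries, so the labels held for every library. The 6 fibroblast markers (Col1a1, Col1a2, Col3a1, Pdgfra, Dcn and Lum) summed to 430.2 to 839.6 CPM in basal duct, 226 to 406 in basal TEB, 6.03 to 249.7 in luminal duct and 11.7 to 53.1 in luminal TEB, and luminal duct replicate 3 lay above basal TEB replicates 1 and 3. Of these 6 markers, 1 passed as higher in basal cells in ducts and 1 in TEBs. The 6 luminal progenitor markers summed to 745 to 863 CPM in luminal duct and 376 to 478 in luminal TEB, and none of them passed between these groups. Of the 10 basal markers, 8 passed as lower in luminal TEB than in luminal duct, and 4 as lower in basal TEB than in basal duct. Of the luminal duct pair, replicate 3 held the higher sum of fibroblast markers and of adipocyte (89.9 CPM), macrophage (48.5 CPM) and lymphocyte markers (28.3 CPM), and in replicate 1 the 6 adipocyte markers were at 0. In a bulk sample, fewer cells of a type and less RNA per cell cannot be told apart.

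The clearest pattern was between the cell types. The question was which enzymes each layer of the epithelium carries, and whether this held in both structures. In ducts, 20 of the 51 tested genes (39.2%) passed an adjusted p of 0.05 by the quasi-likelihood test of edgeR, 9 higher and 11 lower in basal than in luminal cells, where 22.3% of all tested genes passed (12.6% higher in basal and 9.71% higher in luminal cells). In TEBs, 24 of 51 (47.1%) passed, 8 higher and 16 lower in basal cells, where 25.1% of all tested genes passed (13.2% higher in basal and 11.8% higher in luminal cells). The size of the changes was closer to that of other genes, with a median absolute log2 fold change of 1.00 in ducts and 1.09 in TEBs against 0.922 and 0.868 over all tested genes. The duct split moved with single libraries, to 10 higher and 8 lower without luminal duct replicate 1, 4 and 11 without luminal duct replicate 3 and 5 and 11 without basal duct replicate 1. The TEB split was 5 and 13 without luminal TEB replicate 1 and 5 and 12 without luminal TEB replicate 3. In both structures 16 genes passed in the same direction, 4 passed in ducts only and 8 in TEBs only, and the sign was the same for 44 of 51 genes. These counts were not taken over all tested genes. The log2 fold changes in ducts and in TEBs had a Pearson correlation of 0.894 over the 51 genes and 0.645 over all tested genes. Ducts and TEBs share no library, but both rest on 1 fitted model. Gclc, Gsr and Gss, Prdx3, Prdx5 and Prdx6, and most transferases that passed in TEBs were higher in luminal cells, while the glutathione peroxidases were split between the layers and Txnrd1 and Txnrd3 were higher in basal cells. Without composition normalization, which moved the median of all genes by 0.108 in ducts and -0.377 in TEBs on the log2 scale, the duct calls of Gpx1, Gsto1, Gss, Prdx4, Prdx5, Prdx6, Srxn1 and Txnrd1 and the TEB calls of Mgst1, Txnrd1 and Txnrd3 were lost, and the TEB split was 5 higher and 20 lower.

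**Figure D1:**
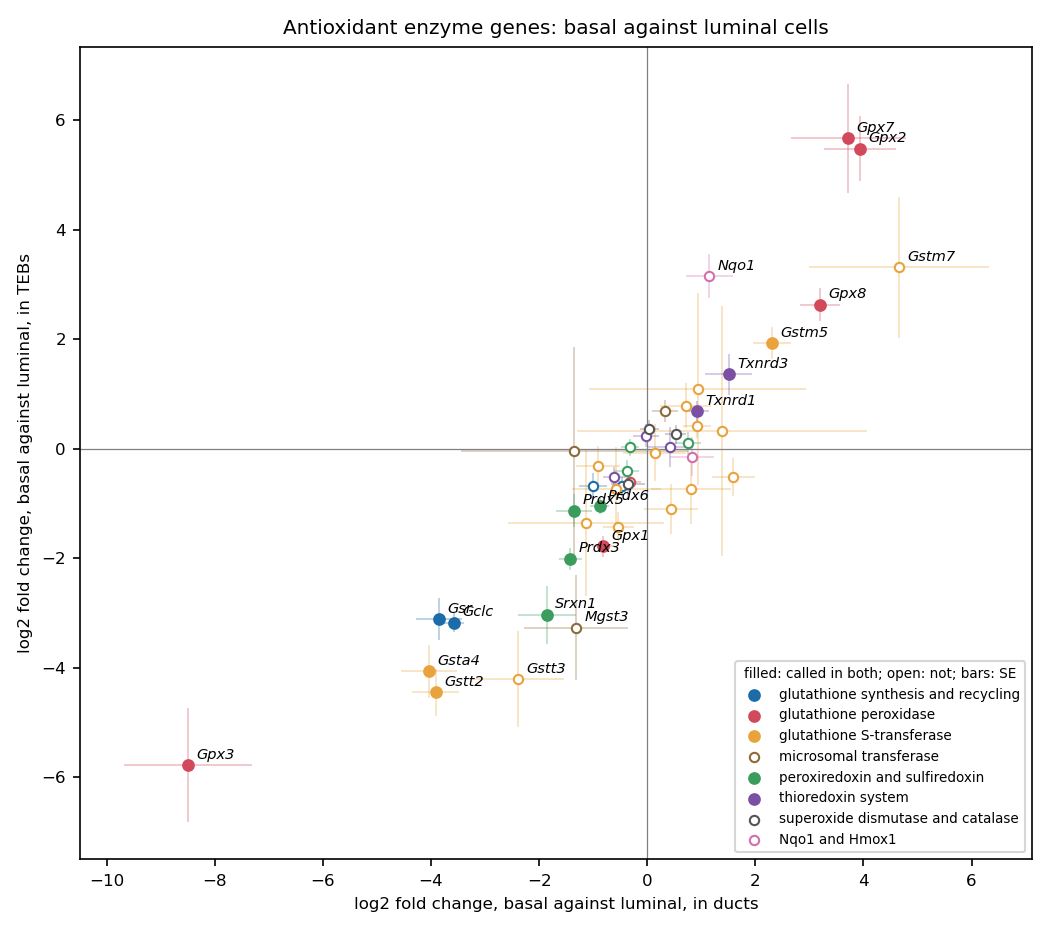
Log2 fold change of basal against luminal cells in ducts (x axis) and in TEBs (y axis) for the tested genes with more than 3 counts in every group, with bars of 1 SE. Points are coloured by role and filled where the gene passed in both structures. Gclc, Gsr, Gpx3, Gsta4 and Gstt2 lie far to the lower left (higher in luminal cells), and Gpx2, Gpx7 and Gpx8 to the upper right (higher in basal cells).

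Of the 4 genes for glutathione synthesis and recycling, 3 were lower in basal cells in ducts, 3 were lower in TEBs and none was higher. The share that passed was 75% in each structure, against 22.3% of all tested genes in ducts and 25.1% in TEBs. Gclc (chr9:77754535-77794489), the catalytic subunit of the rate-limiting ligase, was at 43.04, 46.6 and 37.1 CPM in basal duct, 31.3, 40.7 and 36.1 in basal TEB, 484 and 520.05 in luminal duct and 315, 366 and 293 in luminal TEB. The luminal and basal libraries did not overlap, and the gene was 11.9-fold higher in luminal cells in ducts (log2 fold change -3.57, SE 0.19, adjusted p 6.80e-07) and 9.01-fold higher in TEBs (log2 fold change -3.17, SE 0.18, adjusted p 3.55e-07). Its level varied little between replicates, and it had the smallest adjusted p of the 51 genes in both structures. Gsr (chr8:33653238-33698162), which regenerates reduced glutathione, was at 13.7, 20.2 and 17.9 CPM in basal duct, 8.20, 17.1 and 27.8 in basal TEB, 319 and 179 in luminal duct and 169.8, 133 and 157 in luminal TEB. It was 14.4-fold higher in luminal cells in ducts (log2 fold change -3.85, SE 0.42, adjusted p 4.45e-05) and 8.63-fold higher in TEBs (log2 fold change -3.11, SE 0.39, adjusted p 8.95e-05). The other subunit of the ligase and the second enzyme of synthesis had smaller changes. Gclm, the modifier subunit, was at 65.2, 48.5 and 59.2 CPM in basal duct, 69.7, 72.6 and 62.6 in basal TEB, 90.9 and 68.02 in luminal duct and 120.4, 101 and 109 in luminal TEB. It was 1.61-fold higher in luminal cells in TEBs (log2 fold change -0.69, SE 0.18, adjusted p 0.0136), while the log2 fold change in ducts was -0.46 (SE 0.20, adjusted p 0.116). The Gclm call in TEBs was lost without basal TEB replicate 3 or without luminal TEB replicate 1. Gss was at 29.4, 22.02 and 20.3 CPM in basal duct, 29.6, 25.96 and 29.96 in basal TEB, 36.8 and 58.97 in luminal duct and 45.2, 45.6 and 45.8 in luminal TEB. Every luminal library was above every basal library, and the log2 fold change was -1.001 (SE 0.25, adjusted p 0.0138) in ducts and -0.67 (SE 0.23, adjusted p 0.0518) in TEBs. The Gss call in ducts was lost without basal duct replicate 3 or without luminal duct replicate 3.

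Nearly every glutathione peroxidase tested parted by cell type. Of the 6 tested, 5 passed in ducts (3 higher and 2 lower in basal cells) and 6 passed in TEBs (3 higher and 3 lower). These were 83.3% in ducts and 100% in TEBs, against 22.3% and 25.1% of all tested genes. Gpx3 (chr11:54902854-54910387), which encodes the secreted plasma enzyme, was at 23.2, 7.999 and 7.08 CPM in basal duct, 8.31, 7.98 and 8.32 in basal TEB, 8278 and 966 in luminal duct and 1024, 87.1 and 240.1 in luminal TEB. The luminal libraries ranged over nearly 2 orders of magnitude, from 87.1 to 8278 CPM, and the lowest was still above the highest basal library. Gpx3 was lower in basal than in luminal cells in ducts (log2 fold change -8.50, SE 1.18, adjusted p 0.000277) and in TEBs (log2 fold change -5.78, SE 1.04, adjusted p 0.00136), and the TEB call was lost with limma voom (adjusted p 0.108). In luminal duct replicate 1, where Gpx3 was highest, the 6 adipocyte markers were at 0, and in replicate 3 they summed to 89.9 CPM. The markers of mature luminal cells summed to 6920 CPM in luminal duct replicate 1 and 4001 in replicate 3. In luminal TEB this sum was highest in replicate 1 (5333 CPM) and lowest in replicate 2 (3866 CPM), as was Gpx3. Luminal TEB replicate 3 lay above luminal duct replicate 3 in this sum and below it in Gpx3. The part of cell make-up in the spread of Gpx3 was not tested. Gpx1, the ubiquitous cytosolic enzyme, was at 103, 112 and 86.2 CPM in basal duct, 65.6, 79.6 and 60.97 in basal TEB, 211 and 142 in luminal duct and 249, 229 and 229 in luminal TEB. It was 1.76-fold higher in luminal cells in ducts (log2 fold change -0.81, SE 0.20, adjusted p 0.0134) and 3.43-fold higher in TEBs (log2 fold change -1.78, SE 0.19, adjusted p 2.91e-05). The duct call was lost without luminal duct replicate 1. Gpx4, which reduces lipid peroxides in membranes, was at 90.6, 68.3 and 74.7 CPM in basal duct, 44.04, 57.9 and 58.2 in basal TEB, 110.4 and 84.6 in luminal duct and 84.4, 79.4 and 81.3 in luminal TEB. It was 1.53-fold higher in luminal cells in TEBs (log2 fold change -0.61, SE 0.18, adjusted p 0.0279), a call lost without basal TEB replicate 1 and without any 1 of the 3 luminal TEB libraries, and its log2 fold change in ducts was -0.33 (SE 0.20, adjusted p 0.275). Gpx4 shared 28.8% of its 80-base windows with other genes, among them Gpx4-ps2, so its reads may be split.

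Gpx2, Gpx7 and Gpx8 went the other way, and for each of them every basal library was above every luminal library. Gpx2 (chr12:76792335-76795554), the epithelial enzyme best known from the gut, was at 9.80, 6.92 and 16.8 CPM in basal duct, 71.5, 44.1 and 37.3 in basal TEB, 0.933 and 0.493 in luminal duct and 1.61, 1.33 and 0.462 in luminal TEB. It was 15.3-fold higher in basal cells in ducts (log2 fold change 3.94, SE 0.67, adjusted p 0.00113) and 44.8-fold higher in TEBs (log2 fold change 5.48, SE 0.60, adjusted p 3.19e-05). Gpx7 (chr4:108400217-108406713), a resident of the endoplasmic reticulum, was at 34.8, 23.6 and 27.04 CPM in basal duct, 28.98, 23.96 and 23.7 in basal TEB, 4.19 and 0.0411 in luminal duct and 0.404, 0.743 and 0.347 in luminal TEB. Its basal level was even, and the luminal duct pair was not, with 4.19 CPM in replicate 1 and 0.0411 in replicate 3, which is 1 count. The gene was 13.2-fold higher in basal cells in ducts (log2 fold change 3.72, SE 1.07, adjusted p 0.0256), a call lost without basal duct replicate 1 or 3 and with a log2 fold change of 9.33 without luminal duct replicate 1 and 2.76 without luminal duct replicate 3. It was 50.9-fold higher in TEBs (log2 fold change 5.67, SE 0.99, adjusted p 0.00115). Gpx8 (chr13:113042757-113046430), which is also an enzyme of the endoplasmic reticulum, was at 59.96, 73.1 and 57.2 CPM in basal duct, 47.8, 49.9 and 77.1 in basal TEB, 4.80 and 9.09 in luminal duct and 7.29, 10.7 and 10.2 in luminal TEB. It was 9.17-fold higher in basal cells in ducts (log2 fold change 3.20, SE 0.37, adjusted p 7.01e-05) and 6.21-fold higher in TEBs (log2 fold change 2.63, SE 0.30, adjusted p 5.03e-05). The summed fibroblast markers were at 226 to 839.6 CPM over the basal libraries and 6.03 to 249.7 CPM over the luminal libraries. Dcn was the highest of these markers in every basal library. The part of fibroblast RNA in these results was not tested. Within the luminal duct pair, replicate 3 held the higher fibroblast sum, with the lower level of Gpx7 and the higher level of Gpx8. Among the genes whose sequences are shown above, the cysteine codon of Gpx7 and Gpx8 went with a higher level in basal cells, while the TGA genes lay on both sides, Gpx2 with Gpx7 and Gpx8, and Gpx1, Gpx3 and Gpx4 with the luminal cells. Gpx5 and Gpx6, which carried TGC and TGT at this codon, were not tested. Gpx5 had 28 counts in basal TEB replicate 3, 6 in luminal duct replicate 1, none in basal duct and at most 1 in any other library. Gpx6 had 9 and 24 counts in basal TEB replicates 2 and 3 and at most 2 in any other library.

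**Figure D2:**
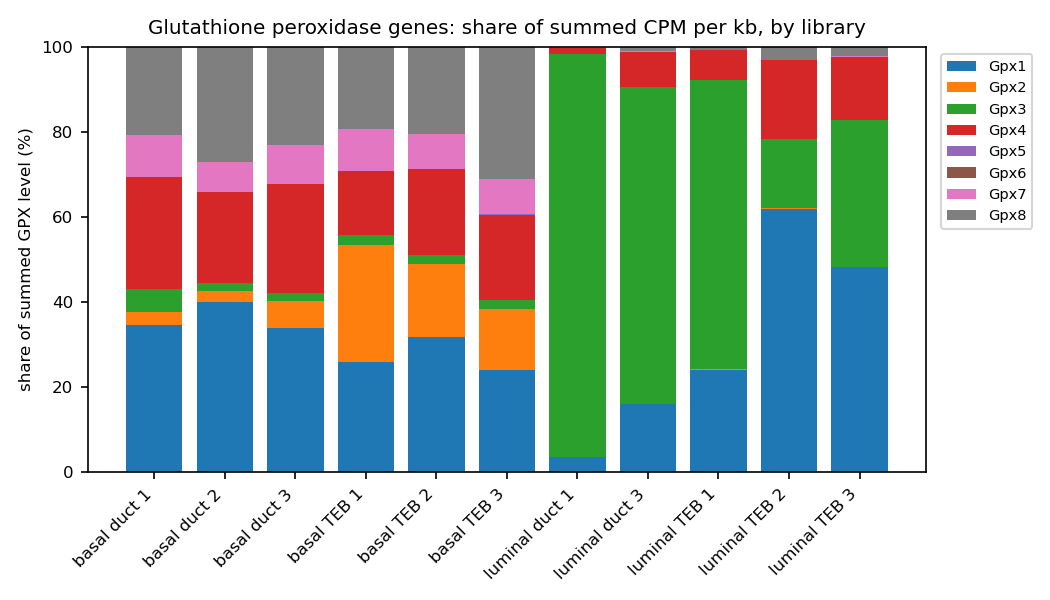
Share of each glutathione peroxidase gene in the summed level of the family (CPM per kb of gene length), as stacked bars that add to 100% in each of the 11 libraries. Gpx3 made up 94.7% of the family in luminal duct replicate 1 and at most 5.32% in any basal library, and Gpx2 made up 14.4% to 27.6% in basal TEB.

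On the scale of CPM per kb of gene length, which allows genes to be compared within a library, the make-up of the peroxidase family differed between the groups. In basal duct, Gpx1 held 33.8% to 40.1% of the summed family level, Gpx4 21.3% to 26.4%, Gpx8 20.6% to 26.9% and Gpx2 2.43% to 6.46%. In basal TEB, the Gpx2 share was 14.4% to 27.6%, above all 3 basal duct libraries. Gpx7 and Gpx8 together were a steady component of basal cells and a minor one of luminal cells, where Gpx8 did not exceed 2.97%. Gpx3 held 94.7% and 74.6% in the luminal duct pair and 67.9%, 16.1% and 34.6% in luminal TEB.

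Among the 20 tested glutathione S-transferases, 3 were higher and 2 lower in basal cells in ducts (25%, against 22.3% of all tested genes). In TEBs 1 was higher and 5 lower (30%, against 25.1%), so the share that passed was near that of all tested genes. The alpha class, known for detoxifying products of lipid peroxidation, was luminal where it passed. Gsta4 (chr9:78191966-78209349), which conjugates the lipid aldehyde 4-hydroxynonenal, was at 2.17, 2.76 and 4.98 CPM in basal duct, 15.4, 6.02 and 4.70 in basal TEB, 67.4 and 40.8 in luminal duct and 134, 114 and 184 in luminal TEB. It was 16.4-fold higher in luminal cells in ducts (log2 fold change -4.04, SE 0.51, adjusted p 0.000136) and 16.7-fold higher in TEBs (log2 fold change -4.07, SE 0.49, adjusted p 6.78e-05). Gsta1 had 257 counts over the luminal TEB libraries and none in basal TEB, so it was at least 57.8-fold higher in luminal cells against a limit of 3 counts over the group (adjusted p 0.0172). In ducts Gsta1 had 20 luminal counts and 1 basal count, a ratio of 37.3 with a counting interval of 5.96 to 1544, and it did not pass (adjusted p 0.0945). The Gsta1 call was lost without luminal TEB replicate 3. Gsta2 had 255 luminal TEB and 68 luminal duct counts and none in any basal library, where all 68 duct counts lay in luminal duct replicate 1 and replicate 3 had none. This is at least 57.4-fold and 42.2-fold higher in luminal cells, with adjusted p of 0.0534 and 0.0743. These near copies cannot be read apart with certainty, since Gsta1 shared 84.0% and Gsta2 34.6% of their 80-base windows with other genes.

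Of the theta class, Gstt2 was higher in luminal cells in both structures and Gstt3 in TEBs. Gstt2 was at 2.55, 4.60 and 4.08 CPM in basal duct, 2.42, 2 and 0.812 in basal TEB, 46.1 and 66.5 in luminal duct and 34.5, 40.2 and 38.5 in luminal TEB. It was 15.04-fold higher in luminal cells in ducts (log2 fold change -3.91, SE 0.44, adjusted p 5.70e-05) and 21.9-fold higher in TEBs (log2 fold change -4.45, SE 0.44, adjusted p 1.45e-05). Gstt3 was at 14.01, 9.29 and 18.6 CPM in basal duct, 0, 7.90 and 5.21 in basal TEB, 67.2 and 79.6 in luminal duct and 75.1, 88.5 and 85.1 in luminal TEB. Luminal and basal libraries did not overlap, and the log2 fold change was -4.21 (SE 0.87, adjusted p 0.00362) in TEBs and -2.39 (SE 0.85, adjusted p 0.0648) in ducts. Basal TEB replicate 1 held no Gstt3 count. Gstt3 shares 13.6% of its exon bases with the overlapping gene Gm20441 on the same strand. Gstt1, which lies between Gstt3 and Gstt4 in the cluster on chromosome 10, passed in neither structure, with log2 fold changes of 0.44 (SE 0.51, adjusted p 0.578) in ducts and -1.10 (SE 0.45, adjusted p 0.1) in TEBs. Gstp1 of the pi class was at 42.02, 26.9 and 27.8 CPM in basal duct, 17.95, 31.8 and 28.1 in basal TEB, 55.4 and 38.2 in luminal duct and 71.8, 67.1 and 70.1 in luminal TEB. It was 2.68-fold higher in luminal cells in TEBs (log2 fold change -1.42, SE 0.27, adjusted p 0.00176), and the duct groups overlapped. Gstp1 shared 28.3% and Gstp2 49.5% of their windows with other genes.

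The transferases that were higher in basal cells were 2 of the mu class on chromosome 3 and 1 of the omega class. Gstm5 (chr3:107895854-107898685) was at 64.01, 65.9 and 48.7 CPM in basal duct, 29.3, 52.7 and 60.2 in basal TEB, 13.5 and 10.5 in luminal duct and 10.9, 15.6 and 10.7 in luminal TEB. It was 4.96-fold higher in basal cells in ducts (log2 fold change 2.31, SE 0.35, adjusted p 0.000537) and 3.82-fold higher in TEBs (log2 fold change 1.93, SE 0.30, adjusted p 0.000455). Its exons overlap 4933431E20Rik on the opposite strand over 13.9% of their bases, and the library kit does not keep strand. Gstm1 (chr3:108012250-108017973) was at 33.8, 46.5 and 30.1 CPM in basal duct, 10.6, 13.2 and 6.11 in basal TEB, 12.7 and 11.7 in luminal duct and 11.3, 17.1 and 14.4 in luminal TEB. Only its basal duct libraries stood apart, at 3.01-fold the luminal level in ducts (log2 fold change 1.59, SE 0.40, adjusted p 0.0132), and in TEBs the log2 fold change was -0.51 (SE 0.34, adjusted p 0.308). The duct call of Gstm1 was lost without luminal duct replicate 3. Gsto1 of the omega class, the transferase with the highest mean level per kb over the 4 groups, was at 131, 136 and 95.6 CPM in basal duct, 69.3, 95.2 and 92.9 in basal TEB, 78.6 and 48.3 in luminal duct and 73.04, 56.3 and 62.3 in luminal TEB. It was 1.90-fold higher in basal cells in ducts (log2 fold change 0.93, SE 0.26, adjusted p 0.023), a call lost without basal duct replicate 1 or 2 or luminal duct replicate 3, and its log2 fold change in TEBs was 0.43 (SE 0.23, adjusted p 0.2). Gstm7, at 1.30, 1.63 and 6.34 CPM in basal duct, 4.91, 5.52 and 5.12 in basal TEB, 0.228 and 0 in luminal duct and 0.135, 0.629 and 0.79 in luminal TEB, had no overlap between basal and luminal libraries and did not pass (log2 fold change 4.66 (SE 1.66, adjusted p 0.0657) in ducts and 3.31 (SE 1.29, adjusted p 0.0847) in TEBs). Gsta3, Gstm2, Gstm4, Gstm6, Gsto2, Gstp2, Gstk1 and Gstz1 passed in neither structure. Gstp3 had 102 counts in luminal TEB and none in basal TEB, at least 22.9-fold, and did not pass (adjusted p 0.0795). Gstm3 had at most 3 counts in any library and Gstt4 had 49 counts in luminal duct replicate 1 and at most 2 elsewhere.

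The microsomal transferases were split. Mgst1, which sits in the outer mitochondrial membrane and the endoplasmic reticulum, was at 103, 124 and 150.4 CPM in basal duct, 147, 125 and 168 in basal TEB, 106 and 93.9 in luminal duct and 78.9, 115 and 78.5 in luminal TEB. It was 1.61-fold higher in basal cells in TEBs (log2 fold change 0.69, SE 0.21, adjusted p 0.029), a call lost without basal TEB replicate 1 or 3, or without luminal TEB replicate 1 or 3. The log2 fold change of Mgst1 in ducts was 0.33 (SE 0.23, adjusted p 0.338). Mgst3 was at 6.13, 13.2 and 10.1 CPM in basal duct, 0, 11.1 and 7.14 in basal TEB, 23.8 and 25.1 in luminal duct and 52.2, 62.4 and 63.1 in luminal TEB. It was higher in luminal cells in TEBs (log2 fold change -3.26, SE 0.96, adjusted p 0.0254), a call lost without basal TEB replicate 3 and without any 1 of the luminal TEB libraries, and in ducts the value was -1.32 (SE 0.97, adjusted p 0.358). Mgst2 was at 0, 1.92 and 0.436 CPM in basal duct, 0, 0.168 and 0.812 in basal TEB, 0.387 and 3.62 in luminal duct and 0.314, 0.457 and 0.25 in luminal TEB, and it passed in no comparison.

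**Figure D3:**
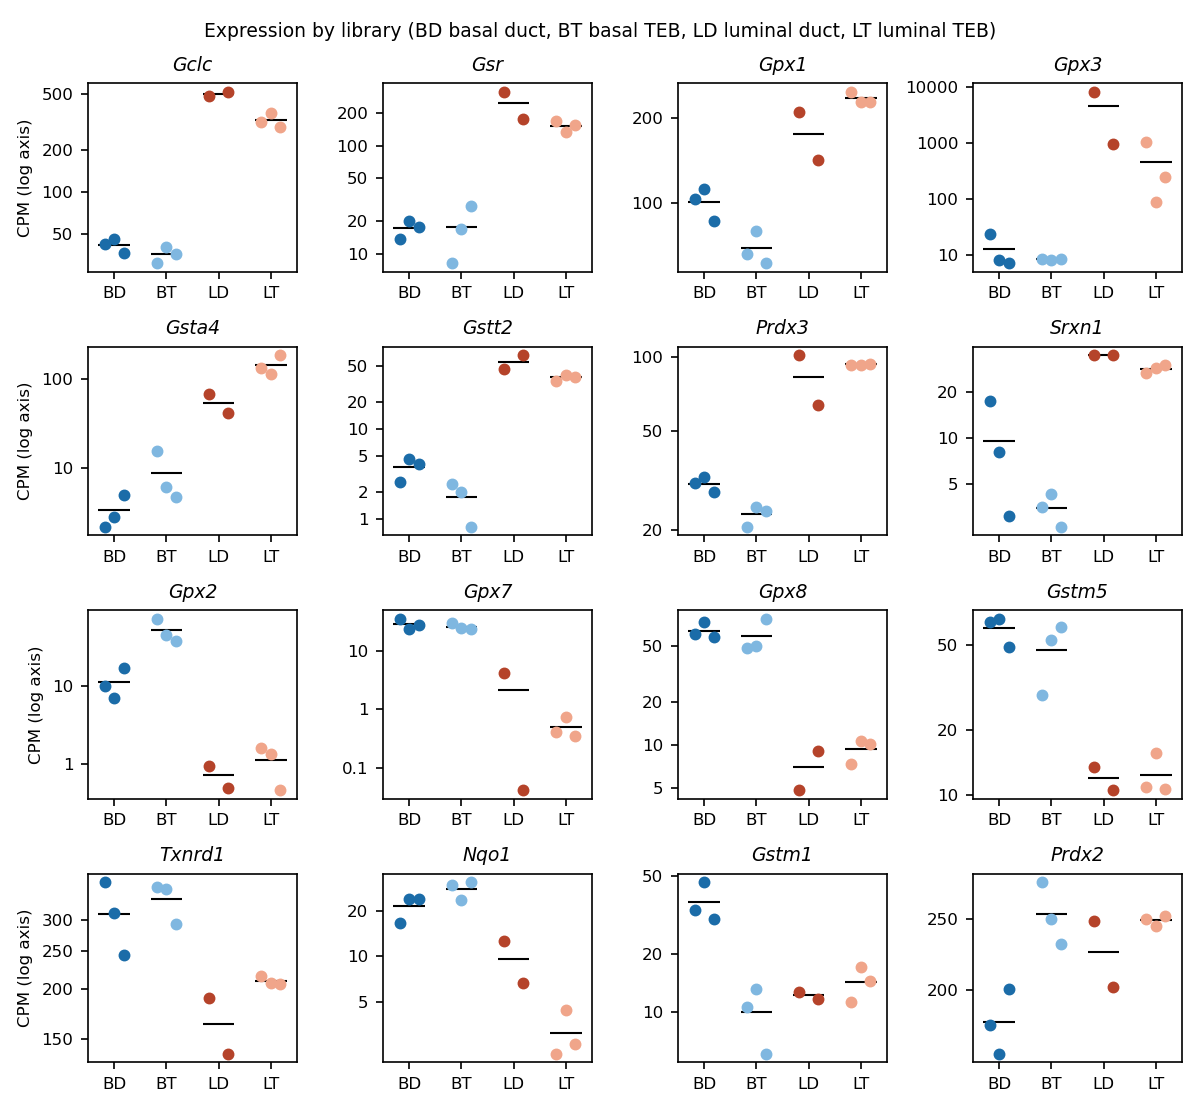
CPM after TMM scaling in each of the 11 libraries (log axes) for 16 genes, with 1 point per library and a line at the group mean. Gclc, Gsr, Gpx1, Gpx3, Gsta4, Gstt2, Prdx3 and Srxn1 are higher in both luminal groups, Gpx2, Gpx7, Gpx8, Gstm5, Txnrd1 and Nqo1 in both basal groups, Gstm1 stands apart in basal duct (30.1 to 46.5 CPM), and Prdx2 lies within 164 to 281 CPM throughout.

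Peroxiredoxins are the most abundant peroxidases of most cells, and 4 of the 7 genes of this group were lower in basal cells in each structure. Counting both directions, 71.4% passed in ducts and 57.1% in TEBs, against 22.3% and 25.1% of all tested genes. Prdx3, the mitochondrial form, was at 30.97, 32.9 and 28.4 CPM in basal duct, 20.7, 24.8 and 23.9 in basal TEB, 101 and 63.6 in luminal duct and 92.5, 92.6 and 93.7 in luminal TEB. It was 2.68-fold higher in luminal cells in ducts (log2 fold change -1.42, SE 0.21, adjusted p 0.000446) and 4.01-fold higher in TEBs (log2 fold change -2.01, SE 0.20, adjusted p 1.60e-05). Prdx5, found in mitochondria and peroxisomes, was at 66.3, 47.3 and 55.1 CPM in basal duct, 43.3, 51.9 and 58.95 in basal TEB, 211 and 75.7 in luminal duct and 114, 106 and 117 in luminal TEB. Luminal duct replicate 1 was far above replicate 3, and the log2 fold change was -1.35 (SE 0.33, adjusted p 0.0114) in ducts and -1.13 (SE 0.30, adjusted p 0.0167) in TEBs. The duct call of Prdx5 was lost without luminal duct replicate 1 (log2 fold change -0.43), and the TEB call without basal TEB replicate 1 or luminal TEB replicate 3. Prdx5 overlaps Trmt112 on the opposite strand over 19.1% of its exon bases. Prdx6, which reduces phospholipid peroxides with glutathione, was at 128, 118 and 102 CPM in basal duct, 105, 101 and 94.4 in basal TEB, 241 and 187 in luminal duct and 207, 209 and 201 in luminal TEB. It was 1.84-fold higher in luminal cells in ducts (log2 fold change -0.88, SE 0.17, adjusted p 0.00262) and 2.05-fold higher in TEBs (log2 fold change -1.04, SE 0.16, adjusted p 0.000362). Srxn1, sulfiredoxin, which repairs overoxidized peroxiredoxins, was at 17.5, 8.05 and 3.10 CPM in basal duct, 3.52, 4.27 and 2.63 in basal TEB, 34.6 and 34.7 in luminal duct and 26.6, 28.6 and 29.8 in luminal TEB. The luminal libraries were even and the basal duct libraries were spread, and the log2 fold change was -1.86 (SE 0.54, adjusted p 0.0275) in ducts and -3.02 (SE 0.53, adjusted p 0.00113) in TEBs. Its duct call was lost without basal duct replicate 2 and without either luminal duct library. Prdx4, the form of the endoplasmic reticulum, was at 51.9, 44.9 and 55.8 CPM in basal duct, 41.8, 61.4 and 64.02 in basal TEB, 26.9 and 33.4 in luminal duct and 48.8, 57.5 and 49.01 in luminal TEB. It was 1.69-fold higher in basal cells in ducts (log2 fold change 0.75, SE 0.24, adjusted p 0.039), which held in 10 of 20 alternatives and was lost without basal duct replicate 1 or 3, either luminal duct library or any 1 luminal TEB library, and the value in TEBs was 0.11 (SE 0.21, adjusted p 0.754). Prdx1 and Prdx2 passed in no comparison. Prdx2, the cytosolic form with the highest mean level of the group, was at 179, 164 and 201 CPM in basal duct, 281, 250.1 and 231 in basal TEB, 249 and 202 in luminal duct and 251, 245 and 252 in luminal TEB.

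The thioredoxin system went towards basal cells at its reductases. Txnrd1, the cytosolic selenoprotein that reduces thioredoxin, was at 373, 312 and 245 CPM in basal duct, 364, 359 and 293 in basal TEB, 190.3 and 137 in luminal duct and 216, 208 and 207 in luminal TEB. Every basal library was above every luminal library, and the gene was 1.89-fold higher in basal cells in ducts (log2 fold change 0.92, SE 0.22, adjusted p 0.0105) and 1.61-fold higher in TEBs (log2 fold change 0.69, SE 0.19, adjusted p 0.021). The duct call of Txnrd1 was lost without luminal duct replicate 3, the TEB call without basal TEB replicate 1 or 2 or any 1 luminal TEB library. Txnrd3, which carries an added glutaredoxin domain, was at 32.3, 35.5 and 15.9 CPM in basal duct, 29.4, 20.8 and 16.6 in basal TEB, 8.47 and 11.1 in luminal duct and 7.55, 10.5 and 7.88 in luminal TEB. It was 2.85-fold higher in basal cells in ducts (log2 fold change 1.51, SE 0.43, adjusted p 0.0258), a call lost without basal duct replicate 1 or 2 or either luminal duct library. It was 2.57-fold higher in basal cells in TEBs (log2 fold change 1.36, SE 0.37, adjusted p 0.0185), a call lost without luminal TEB replicate 1 or 3. Txnrd2, the mitochondrial reductase, lay between 8.29 and 13.8 CPM in all libraries and did not pass. The substrates did not pass either. Txn1, the cytosolic thioredoxin, was at 143, 106 and 131 CPM in basal duct, 174, 137 and 166 in basal TEB, 236 and 149.98 in luminal duct and 242, 212 and 229 in luminal TEB. Its log2 fold change was -0.61 (SE 0.22, adjusted p 0.066) in ducts and -0.52 (SE 0.20, adjusted p 0.0766) in TEBs, the reverse in sign of its reductase. As a share of the summed reductase level per kb, Txnrd1 made up 80.4% to 87.7% in every library, so the make-up of this family was steady.

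None of the 3 superoxide dismutases or catalase passed in any of the 5 tests. At an unadjusted p under 0.05 there was 1 of 4 in ducts and 2 of 4 in TEBs, against 35.1% and 36.2% of all tested genes. Sod1, the copper-zinc enzyme of the cytosol, was at 106, 97.96 and 93.1 CPM in basal duct, 107, 92.4 and 131 in basal TEB, 93.6 and 99.7 in luminal duct and 83.5, 86.3 and 85.99 in luminal TEB. Its log2 fold change was 0.04 (SE 0.18, adjusted p 0.917) in ducts and 0.37 (SE 0.16, adjusted p 0.119) in TEBs. Sod2, the manganese enzyme of mitochondria, lay between 21.4 and 54.2 CPM and catalase between 40.1 and 70.6 CPM over all libraries. Sod3, the extracellular enzyme, had 80 counts in basal duct and none in luminal duct, at least 14.3-fold, and did not pass (adjusted p 0.177).

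Nqo1 and Hmox1 are both classical NRF2 targets, and they did not run together. Nqo1, a quinone reductase, was at 16.6, 24 and 24.04 CPM in basal duct, 29.7, 23.5 and 30.7 in basal TEB, 12.7 and 6.66 in luminal duct and 2.29, 4.46 and 2.64 in luminal TEB. It was 8.92-fold higher in basal cells in TEBs (log2 fold change 3.16, SE 0.41, adjusted p 0.000112). In ducts the basal libraries were also above the luminal ones, and the log2 fold change was 1.15 (SE 0.43, adjusted p 0.0795). Hmox1, which breaks down heme, was at 44.7, 53.7 and 22.9 CPM in basal duct, 26.03, 19.7 and 14.4 in basal TEB, 16.6 and 28.9 in luminal duct and 21.3, 20.7 and 24.2 in luminal TEB. It passed in no comparison, and its highest level was in basal duct replicate 2. This library held the highest sums of fibroblast (839.6 CPM), adipocyte (195 CPM), endothelial (175.1 CPM) and macrophage markers (74.6 CPM). Of the macrophage markers there, Cd68 was at 51.6 CPM, and Adgre1 and C1qa were at 0. The part of RNA from these other cell types in the Hmox1 value was not tested.

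Between TEBs and ducts of the same cell type few of these genes passed. In basal cells 1 of 51 genes (1.96%) passed, Gstm1, where 1.32% of all tested genes passed (0.167% higher and 1.16% lower in TEB). In luminal cells none passed by the quasi-likelihood test of edgeR, where 1.41% of all tested genes passed (0.639% higher and 0.771% lower in TEB), while 7 of 51 had an unadjusted p under 0.05, against 16.6% of all tested genes. In basal cells 12 of 51 had an unadjusted p under 0.05, against 14.5% of all tested genes. The other tools called 3 genes in luminal cells with DESeq2, 2 with the likelihood ratio test of edgeR and 3 with limma voom. Over all tested genes these tools called 1277, 1006 and 351. Gstm1 was 3.69-fold lower in basal TEB than in basal duct (log2 fold change -1.88, SE 0.35, adjusted p 0.0253), from 30.1 to 46.5 CPM in duct to 6.11 to 13.2 CPM in TEB with no overlap. The call held in 14 of 20 alternatives and was lost without basal duct replicate 1 or 2, without basal TEB replicate 1 or 3, without luminal TEB replicate 3 and without composition normalization. Its luminal counterpart was 0.22 (SE 0.38, adjusted p 0.816). Gstm1 shared 10.6% of its windows with other genes.

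Gpx2 had the next smallest adjusted p in basal cells. Its basal duct libraries were at 9.80, 6.92 and 16.8 CPM and its basal TEB libraries at 71.5, 44.1 and 37.3, with no overlap, and the log2 fold change was 2.19 (SE 0.51, adjusted p 0.0697). It passed in 4 of 20 alternatives, which were DESeq2, the likelihood ratio test, limma voom and the fit without a filter. Gstp3, with 33 counts in basal duct replicate 2 and none in basal TEB, and Gstm6 (log2 fold change 1.94 (SE 1.80, adjusted p 0.675)) were the other genes with a large fitted change that did not pass in basal cells. In luminal cells Gpx3 had the largest change among well counted genes, at 8278 and 966 CPM in duct and 1024, 87.1 and 240.1 in TEB, and these groups overlapped (log2 fold change -3.36 (SE 0.96, adjusted p 0.11)). It passed in 3 of 20 alternatives, DESeq2, the likelihood ratio test and limma voom, and the fitted change ran from -4.84 to -1.10. Nqo1 in luminal cells was at 12.7 and 6.66 CPM in duct and 2.29, 4.46 and 2.64 in TEB without overlap, with a log2 fold change of -1.63 (SE 0.41, adjusted p 0.0783). Mgst2 (log2 fold change -2.54 (SE 2.13, adjusted p 0.569)) and Sod3, with 7 counts in luminal TEB and none in luminal duct, did not pass. Gpx7 depended on which luminal duct library was kept. Its log2 fold change in luminal cells was -2.10 (SE 0.93, adjusted p 0.287), and without luminal duct replicate 1 it was 3.51 and passed, while without luminal duct replicate 3 it was -3.06 and passed.

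**Figure D4:**
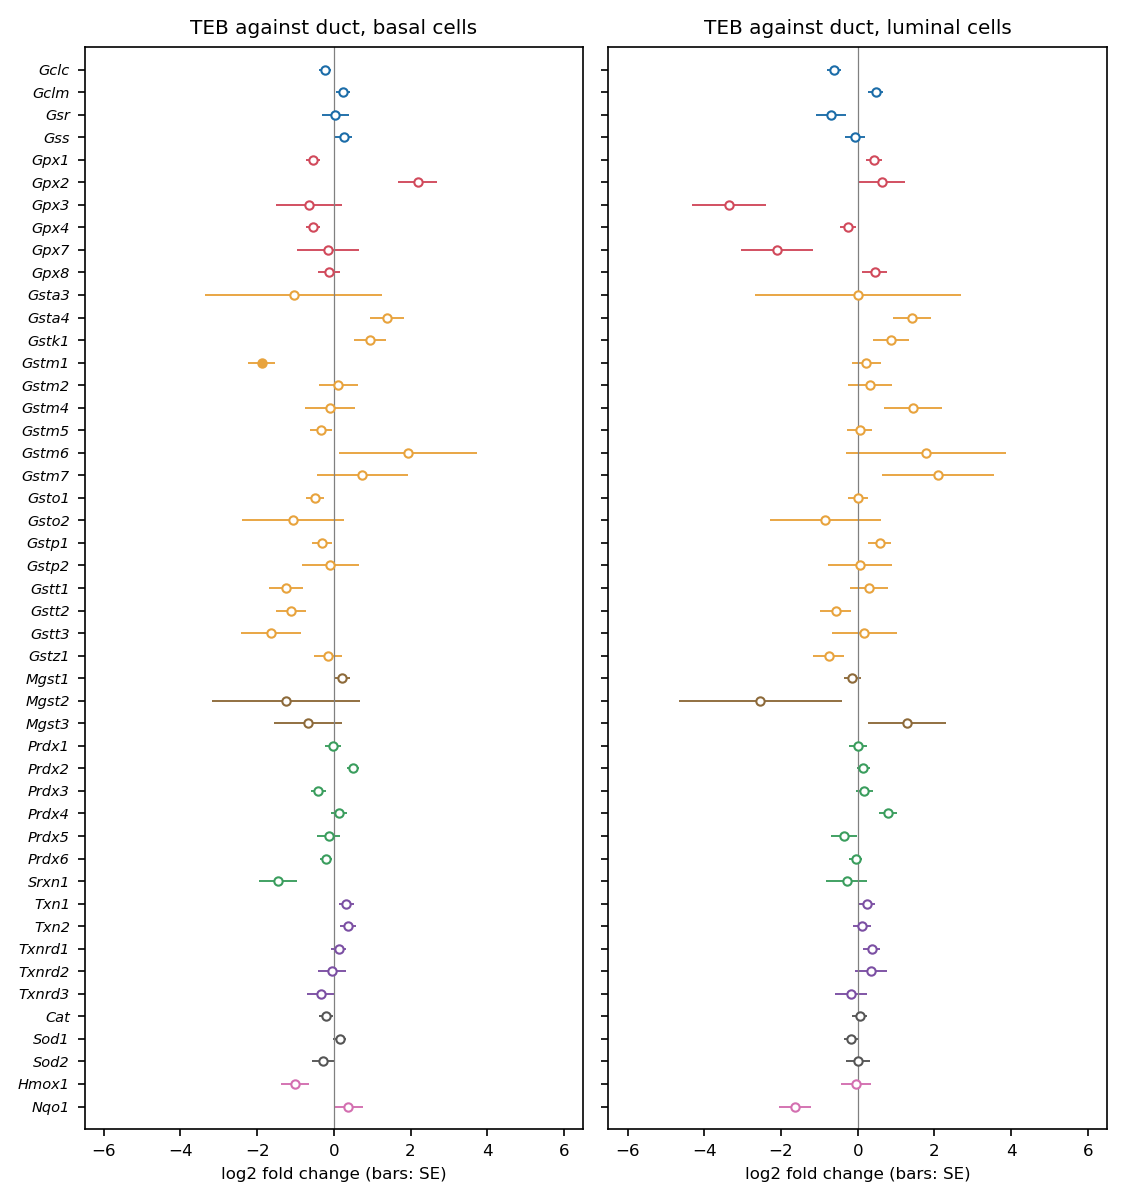
Log2 fold change of TEB against duct in basal cells (left) and luminal cells (right), with bars of 1 SE, for the tested genes with more than 3 counts in every group, coloured by role and filled where the gene passed. Gstm1 in basal cells (-1.88) is the 1 filled point.

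None of the 51 genes passed the test of whether the TEB against duct difference was unlike in basal and luminal cells (the interaction in the quasi-likelihood test of edgeR), where 0.443% of all tested genes passed (0.0806% more positive and 0.363% more negative in basal cells). At an unadjusted p under 0.05 there were 5 of 51 genes, against 14.7% of all tested genes. DESeq2 called 3 of the antioxidant genes, the likelihood ratio test 2 and limma voom none. DESeq2 and the likelihood ratio test also called more of all genes than the main test. The difference was -2.10 (SE 0.52, adjusted p 0.115) for Gstm1 and 2.01 (SE 0.56, adjusted p 0.154) for Nqo1 on the log2 scale. Gstp3, Gsta1 and Sod3 had the largest fitted interactions, each with a group of libraries at 0, and had adjusted p of 0.492, 0.501 and 0.674.

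A set of 65 other genes of the same pathways, of which 64 were tested, gives the supply side. These genes were chosen with earlier results of these data known. The shares below therefore describe the list and are no test of the pathways. In ducts 16 were higher and 13 lower in basal cells (45.3%, against 22.3% of all tested genes), and in TEBs 14 were higher and 11 lower (39.1%, against 25.1%). Between TEBs and ducts 3 of 64 were lower in TEBs in basal cells (Mafk, Anpep and Txnip, 4.69% against 1.32% of all tested genes). In luminal cells 2 were lower (Ggt1 and Txnip) and 1 was higher (Idh1, 1.30 (SE 0.26)), again 4.69%, against 1.41%. Of the 61 calls of these genes over the 5 comparisons, 30 held in all 20 alternatives and none changed direction. The Mafk call in basal cells was lost without basal duct replicate 1 or 2 or basal TEB replicate 1 or 3, and the Anpep call without basal duct replicate 1 or 2 or basal TEB replicate 3. The Idh1 call in luminal cells was lost without basal duct replicate 1 or 3, luminal duct replicate 1 or any 1 luminal TEB library. These 3 calls and the Ggt1 and Txnip calls were also lost without composition normalization. Of the 8 genes that supply NADPH, 4 were lower and 2 higher in basal cells in ducts, and 5 were lower and 1 higher in TEBs. G6pdx, which opens the pentose phosphate pathway, was at 33.7, 22.6 and 29.1 CPM in basal duct, 25.4, 36.7 and 30.3 in basal TEB, 266 and 129 in luminal duct and 233, 159.8 and 188 in luminal TEB. Every luminal library was above every basal library, with a log2 fold change of -2.79 (SE 0.30) in ducts and -2.65 (SE 0.29) in TEBs. The same direction was seen for Pgd, the next NADPH-forming step (-1.20 (SE 0.23) and -1.29 (SE 0.21)), for Me1, malic enzyme (-2.13 (SE 0.57), lost without basal duct replicate 3 or luminal duct replicate 1, and -3.35 (SE 0.56)), and for Taldo1, transaldolase (-0.99 (SE 0.16) and -1.30 (SE 0.15)). Tkt, transketolase, was lower in basal cells in TEBs (-0.74 (SE 0.21)). Nnt, the mitochondrial transhydrogenase, went the other way (1.02 (SE 0.31) in ducts and 1.27 (SE 0.27) in TEBs), and Idh1, which makes NADPH in the cytosol, was higher in basal cells in ducts (1.04 (SE 0.26)). The TEB call of Tkt was lost without basal TEB replicate 1 or 3 or luminal TEB replicate 1 or 3, the duct call of Nnt without basal duct replicate 2 or 3 or either luminal duct library, and the duct call of Idh1 without luminal duct replicate 1.

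Of the 15 genes for glutathione supply and turnover, 5 were higher and 2 lower in basal cells in ducts, and 5 were higher and 1 lower in TEBs. The shares over all tested genes were 22.3% in ducts and 25.1% in TEBs. The cystine importer was basal, in contrast to the ligase that uses its product. Slc7a11, the transport subunit, was at 1.36, 6.37 and 25.5 CPM in basal duct, 53.3, 56.2 and 62.3 in basal TEB, 0.797 and 0 in luminal duct and 0.717, 0.533 and 0.616 in luminal TEB, with a log2 fold change of 4.66 (SE 1.26) in ducts and 6.52 (SE 1.12) in TEBs. The duct call of Slc7a11 was lost without basal duct replicate 3, without luminal duct replicate 3 and with limma voom, and the luminal duct pair was uneven. Slc3a2, its partner chain and that of other amino acid transporters, was at 518, 402 and 541 CPM in basal duct, 566, 512 and 523 in basal TEB, 161 and 143 in luminal duct and 107, 116 and 112 in luminal TEB, with 1.68 (SE 0.19) and 2.26 (SE 0.17). Cth, which makes cysteine from cystathionine, was higher in basal cells (3.87 (SE 1.04) and 3.15 (SE 0.85)), while Cbs, the step before it, was lower in ducts (-2.57 (SE 0.60)). Ggt5, a gamma-glutamyl enzyme of the cell surface, was at 7.54 to 22.1 CPM in basal duct and 19.0 to 42.5 in basal TEB and at no more than 0.0572 in any luminal library. Ggt1, which breaks down extracellular glutathione, was at 155, 140.4 and 159 CPM in basal duct, 383, 166 and 237 in basal TEB, 171 and 127 in luminal duct and 59.5, 43.7 and 57.3 in luminal TEB. It was higher in basal cells in TEBs (2.29 (SE 0.28)) and lower in luminal TEB than in luminal duct (-1.48 (SE 0.29)), the latter in 11 of 20 alternatives and lost without basal duct replicate 1 or 3, basal TEB replicate 3 or any 1 luminal library. Abcc1, an exporter of glutathione conjugates, was higher in basal cells in ducts (1.93 (SE 0.32)). Anpep, a surface peptidase, was lower in basal than in luminal cells in TEBs (-2.31 (SE 0.35)) and lower in basal TEB than in basal duct (-1.95 (SE 0.34)). Chac1, which degrades glutathione, passed in ducts with no count in basal duct and 4.62 and 0.658 CPM in luminal duct, and this was lost without basal duct replicate 1 or luminal duct replicate 1. The Cth call in TEBs was lost without basal TEB replicate 3 or any 1 luminal TEB library.

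**Figure D5:**
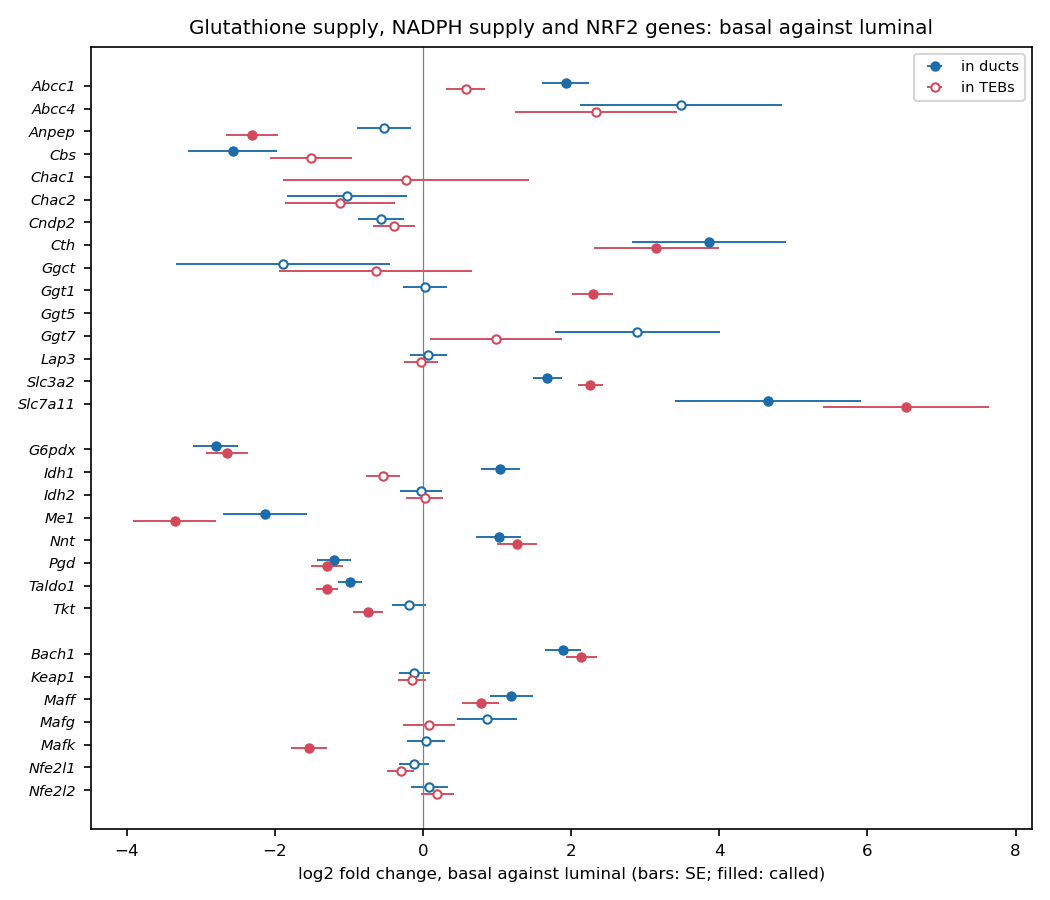
Log2 fold change of basal against luminal cells in ducts (blue) and TEBs (red), with bars of 1 SE, for genes of glutathione supply and turnover (top block), NADPH supply (middle block) and NRF2 with its partners (bottom block), filled where the gene passed. Ggt5 and Chac1 are not drawn where a group was near 0. G6pdx, Me1, Pgd and Taldo1 lie to the left (higher in luminal cells), and Slc7a11, Slc3a2 and Bach1 to the right.

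Of the 7 genes of NRF2 and its partners, 2 were higher in basal cells in ducts, and 2 were higher and 1 lower in TEBs. Of all tested genes, 22.3% passed in ducts and 25.1% in TEBs. Nfe2l2, which encodes NRF2, was at 143, 131 and 120.3 CPM in basal duct, 127, 119 and 120.3 in basal TEB, 168 and 80.8 in luminal duct and 108, 100.2 and 112 in luminal TEB and passed in no comparison, nor did Keap1, its inhibitor, Nfe2l1 or Mafg. Bach1, a repressor at the same element, was at 104, 72.7 and 72.5 CPM in basal duct, 107, 114 and 114 in basal TEB, 26.5 and 18.4 in luminal duct and 26.4, 27.3 and 22.5 in luminal TEB, with a log2 fold change of 1.89 (SE 0.24) in ducts and 2.14 (SE 0.21) in TEBs. Of the small Maf partners, Maff was higher in basal cells in both structures (1.19 (SE 0.29) and 0.78 (SE 0.25), the latter in 11 of 20 alternatives), and Mafk was lower in basal TEB than in luminal TEB (-1.54 (SE 0.24)) and than in basal duct (-1.34 (SE 0.24)).

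Among 9 genes for selenoprotein synthesis and other selenoproteins, Msrb1, which repairs methionine oxides, was higher in basal cells (1.29 (SE 0.16) in ducts and 1.20 (SE 0.14) in TEBs), as was Selenow (1.06 (SE 0.21) and 0.93 (SE 0.18)). Secisbp2, which lets the ribosome read TGA as selenocysteine, was lower in basal cells (-1.50 (SE 0.33) and -0.92 (SE 0.31)), and Sepsecs, which makes selenocysteine on its tRNA, was lower in TEBs (-2.07 (SE 0.56)). Of the 10 glutaredoxins and thioredoxin-related genes, Nxn, nucleoredoxin, was higher in basal cells (2.08 (SE 0.24) and 2.53 (SE 0.21)), Txndc5 was higher in ducts (0.74 (SE 0.24)), and Txndc12, Txndc17 and Txnl1 were lower in ducts (-1.34 (SE 0.26), -0.97 (SE 0.21) and -0.83 (SE 0.21)). Txnip, the inhibitor of thioredoxin, was the gene of these lists that fell in TEBs in both cell types. It was at 132, 417 and 356 CPM in basal duct, 34.8, 66.1 and 63.99 in basal TEB, 329.5 and 336 in luminal duct and 84.8, 89.96 and 58.4 in luminal TEB, with a log2 fold change of TEB against duct of -2.46 (SE 0.39) in basal and -2.10 (SE 0.41) in luminal cells, and the duct and TEB libraries of each cell type did not overlap. The luminal call held in 12 of 20 alternatives and was lost without basal duct replicate 3, basal TEB replicate 3, luminal duct replicate 3 or any 1 luminal TEB library, and the basal call was lost without basal TEB replicate 3. Of the detoxification genes, Cbr3 (2.91 (SE 0.59) and 3.86 (SE 0.52)) and Ephx1, epoxide hydrolase (1.27 (SE 0.22) and 1.58 (SE 0.20)), were higher in basal cells, Hagh, a glyoxalase, was lower (-2.18 (SE 0.33) and -2.11 (SE 0.31)), and Cbr1 and Glo1 were lower in ducts (-0.95 (SE 0.27) and -0.70 (SE 0.19)). Nox4, which makes hydrogen peroxide, was higher in basal cells (2.55 (SE 0.43) in ducts and 1.14 (SE 0.35) in TEBs), and Hmox2 was lower in basal cells in TEBs (-1.04 (SE 0.32)). Of these calls, those in ducts of Txndc5, Glo1, Cbr1, Txnl1, Secisbp2 and Txndc17 held in 9, 15, 16, 17, 19 and 19 of 20 alternatives, and those in TEBs of Secisbp2, Nox4, Hmox2, Sepsecs, Msrb1 and Selenow in 9, 12, 15, 17, 19 and 19. The duct calls were lost without luminal duct replicate 3 for Txndc5, Glo1 and Secisbp2 and without luminal duct replicate 1 for Cbr1 and Txnl1. The TEB calls of Secisbp2, Nox4, Hmox2 and Sepsecs were each lost without basal TEB replicate 3 or without luminal TEB replicate 1, among others.

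By CPM per kb, Prdx2 had the highest mean of the 55 genes in basal duct (192 ± 19.8, SD, n = 3) and in basal TEB (269.7 ± 26.6, n = 3). Prdx1 and then Sod1 followed in basal duct, and Sod1 and then Prdx1 in basal TEB, with Mgst1 and Txn1 next in both groups. In the luminal groups Gpx3 had the highest mean, with a spread larger than the mean itself (3035 ± 3395 in luminal duct, n = 2, and 296 ± 330.2 in luminal TEB, n = 3). Prdx2 came next there (239 ± 34.96 and 265 ± 4.27). In luminal TEB, Gpx1 (226 ± 11.04), Txn1 (217 ± 14.4) and Prdx1 (207 ± 7.86) followed, and each differed from its neighbour in this order by less than the larger of their SDs. Summed over all 55 genes without Gpx3, the level was 2234.3 to 2567.5 CPM in the basal libraries and 2998.1 to 3762.5 CPM in the luminal libraries. The lack of overlap in this sum rests on the TMM scaling. As a share of raw counts without Gpx3, luminal duct replicate 3 lay below basal duct replicate 1 and basal TEB replicate 2. With Gpx3 the sums were 2241.4 to 2590.7 CPM in the basal and 3461.9 to 12041 CPM in the luminal libraries.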

How the data were processed

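Per the methods, the authors made TruSeq libraries from total RNA, sequenced them as paired-end reads, aligned them to mm10 with Rsubread and counted fragments per Entrez gene with featureCounts and its inbuilt RefSeq annotation, with versions not given in the sources used here. The deposited values are raw counts, and the 11 single-library tables equal the columns of the matrix, so only the matrix was used. No column was left unused. Of 27179 gene identifiers, 25275 (93%) were given a symbol by the RefSeq table. Libraries were grouped by their labels. Low genes were removed by filterByExpr (minimum count 10, minimum total 15), libraries were scaled by TMM, and 1 model over the 4 groups was fitted with the quasi-likelihood test of edgeR 4.0.16 in R 4.3.3, with p adjusted by Benjamini-Hochberg over all 17370 genes in each of 5 comparisons and called at 0.05. The common biological coefficient of variation was 0.704. SE is the absolute log2 fold change over the root of F, and CPM is the count scaled to library size after TMM normalization. The mice pooled in each library are not named in the labels, and p-values measure the spread between pools. Counting intervals and the 3-count limit cover counting error only.

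Values were named for every gene that passed, for the gene of each role with the highest level per kb, and for the 3 largest changes that did not pass in each comparison. The genes and lists were chosen with earlier results of these data known. Alternatives were DESeq2 1.42.0, limma 3.58.1 voom, the likelihood ratio test, other scalings, no filter, a replicate block, no mitochondrial genes and the loss of each library. The pipeline was tested on simulated data. Coordinates are of GRCm38.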

Additional observations from a re-analysis of the deposited data

Results flagged for a closer look

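Of the genes described, 1 gene of glutathione turnover, Ggt1, had a TEB against duct difference that was not the same in basal and luminal cells by the interaction test of edgeR (log2 difference 2.265, adjusted p 0.033). Ggt1 was at 155, 140.4 and 159 CPM in basal duct, 383, 166 and 237 in basal TEB, 171 and 127 in luminal duct and 59.5, 43.7 and 57.3 in luminal TEB. The call held in 12 of 20 alternatives, and it was lost without composition normalization, without any 1 basal duct library, without basal TEB replicate 3 and without any 1 luminal TEB library. No group held more than 3 samples, so single samples were not tested as outliers.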

How the results depend on the processing

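Of 45 calls of antioxidant genes, 24 held in all 20 alternatives and none changed direction. Genes called between basal TEB and duct, 230 here, numbered 57 without composition normalization, 874 with DESeq2, 707 with the likelihood ratio test and 601 with limma voom, and between luminal TEB and duct, 245 here, they numbered 10, 1277 and 1006 in the first 3 of these, and 372 without basal TEB replicate 1 and luminal duct replicate 3. For the interaction, 77 here, the counts were 15, 712 and 629, with 141 without a filter and 198 without both libraries. Antioxidant genes called in basal cells, 1 here, were 0 without composition normalization and 2 without a filter, with DESeq2, the likelihood ratio test, limma voom or without both libraries. In luminal cells, 0 here, they were 3 with DESeq2, 2 with the likelihood ratio test, 3 with limma voom and 2 without both libraries, and for the interaction, 0 here, 3, 2, 0 and 1. In ducts, 20 here, they were 12 without composition normalization. The cause of these changes was not tested. Leaving out 1 library at a time gave 59 to 399, 37 to 1305, 3072 to 4785, 3048 to 4867 and 7 to 753 genes in basal TEB against duct, luminal TEB against duct, ducts, TEBs and the interaction, and 0 to 2, 0 to 2, 15 to 23, 17 to 28 and 0 to 1 antioxidant genes. The lowest duct count was without luminal duct replicate 3 and the lowest TEB count without luminal TEB replicate 3. The uncalled interaction values of Gstp3 turned to 0.31 with limma voom and 1.53 without basal duct replicate 2, and those of Sod3 to 0.33 with limma voom and 0.43 without luminal TEB replicate 2, in ranges from -5.93 to 1.53 and from -4.31 to 0.43 with 1 library left out. Alternatives that left a gene without counts gave no value for it.

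The share of calls that were higher moved by over 10 percentage points in some settings. In basal TEB against duct it was 12.6% (29 higher and 201 lower) and 1.75% without composition normalization (1 and 56), 25.9% with DESeq2 (226 and 648), 29.8% with the likelihood ratio test (211 and 496) and 31.1% with limma voom (187 and 414). In TEBs it was 52.8% (2298 and 2056) and 37.2% without composition normalization (1380 and 2332), and for the interaction 18.2% (14 and 63), with 6.67% (1 and 14) without composition normalization, 42.4% (302 and 410) with DESeq2 and 41.3% (260 and 369) with the likelihood ratio test. Among antioxidant genes, 9 higher and 11 lower in ducts became 7 and 14 without both libraries, and 8 and 16 in TEBs became 5 and 20 without composition normalization.

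The labels share replicate numbers but do not say that these pair the samples. Of 15 pairs with the same number, correlations of deviations ran from -0.0677 to 0.163 and 4 were over 0.1, and 7 of 11 libraries correlated best with their own number. With the replicate block, 204, 125, 3293, 4030 and 46 genes passed in the 5 comparisons, with 30.4% higher (38 and 87) in luminal TEB against duct in place of 45.3% (111 and 134), and 1, 0, 18, 22 and 0 antioxidant genes passed in both fits. The block ended the duct calls of Prdx4, Txnrd3, Slc7a11, Chac1, Txndc5, Nnt, Cbr1 and Glo1, the TEB calls of Gpx4, Gsta1, Secisbp2 and Nox4 and the luminal Idh1 call, and no other call of the genes named. Luminal duct had 2 libraries, and genes under a few counts per library could not be compared at this depth.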
